A study of Mus musculus with 40 samples.

Results

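Hspa1b encodes the stress-inducible form of HSP70, a chaperone that binds unfolded stretches of other proteins and helps them refold. The values below are its counts in the duodenum of male wild-type B6C3F1 mice after 28 days with hexavalent chromium, with captan or with folpet. The gene was found by probe name in a targeted table of 3045 probes for 2756 genes, in which 1 probe is named HSPA1B and 1 is named for its neighbouring near-copy Hspa1a, so that 2 of 2756 genes are described in full. Both passed the filter on low counts, as did 2541 probes in all. Hspa1b was chosen by its counts in these same libraries, across the exposures and the dose step of each fungicide, so its levels and fold changes, and those of Hspa1a, are given as a description with no test.

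Cells raise Hspa1b and Hspa1a when proteins are damaged or unfolded. The transcription factor HSF1 is then released from chaperones, forms trimers and binds heat shock elements, which are repeats of the bases GAA in alternating orientation. The genes it switches on include HSP70, the exchange factor Hsph1, the HSP40 co-chaperone Dnajb1, the co-chaperone Bag3, the small heat shock protein Hspb1 and Hsp90aa1. In the intestine HSP70 is found in epithelial cells, and thiol-reactive chemicals and metals are among its known inducers.

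Cr(VI) was given at 180 ppm in drinking water. Captan was given in the diet at 6000 or 12000 ppm, and folpet in the diet at 6000 or 16000 ppm. Each of these groups has 7 libraries, and the control group has 5. Captan and folpet are fungicides with a trichloromethylthio group bound to the nitrogen of an imide. The imide is fused to a partly saturated ring in captan and to an aromatic ring in folpet. RNA came from formalin-fixed, paraffin-embedded duodenum scraped from slides, and was read by TempO-Seq, in which a pair of detector oligos is ligated on its target and amplified. The labels give no age, and whether libraries are from separate mice is not stated in them.

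The promoters of both genes are shown because the results turn on a gene that HSF1 switches on, and because the pair is so alike that a probe may read both. RefSeq places Hspa1b and Hspa1a on the minus strand of mouse chromosome 17 in build GRCm38.p6. The stretches below are the 250 bases before each start, at chr17:34959239-34959488 for Hspa1b and chr17:34972157-34972406 for Hspa1a, written 5′ to 3′ on the gene's strand. Capitals mark a match to GAANNTTC, which is 1 GAA unit followed by another in the opposite orientation as in a heat shock element, and the reverse of CCAAT.
Hspa1b: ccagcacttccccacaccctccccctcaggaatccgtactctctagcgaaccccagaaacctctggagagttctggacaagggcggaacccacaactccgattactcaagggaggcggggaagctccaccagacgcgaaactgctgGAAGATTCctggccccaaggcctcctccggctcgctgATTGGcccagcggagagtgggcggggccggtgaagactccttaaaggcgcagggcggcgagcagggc
Hspa1a: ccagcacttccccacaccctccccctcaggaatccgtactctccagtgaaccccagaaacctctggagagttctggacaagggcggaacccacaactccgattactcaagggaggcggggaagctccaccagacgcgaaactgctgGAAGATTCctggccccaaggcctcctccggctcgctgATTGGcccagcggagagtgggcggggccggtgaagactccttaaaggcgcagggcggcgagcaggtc

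The 2 stretches differ at 3 of 250 positions, an identity of 98.8%. Each holds 1 match to GAANNTTC, with 96 bases between the match and the start, and 1 CCAAT on the opposite strand, 62 bases from the start. Both motifs were searched on both strands, together with TTCNNGAA, of which neither promoter has a match. Of 32851 promoter stretches of the same length in the RefSeq table, 6.69% hold GAANNTTC, 12.8% hold GAANNTTC or TTCNNGAA and 33.8% hold CCAAT. The table has an entry for 25 of the 30 heat shock and chaperone genes that were measured, Hspa1b and Hspa1a included, and 10 of those 25 (40%) have a match to GAANNTTC or TTCNNGAA in at least 1 entry. Hsph1, Dnajb6, Stub1, Fkbp4, Hspb1 and Hspb6 are among the 10, while Dnajb1, Tcp1 and Fkbp5 have no match in these stretches. A match is a description of letters and not of binding.

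The transcripts are less alike than the promoters, and unevenly so. Of the 2754 windows of 50 bases in the 2803-base Hspa1b transcript of GENCODE, 62.3% occur unchanged in Hspa1a. The share is 82.3% within the coding part and 0 of 594 windows after the stop codon. Hspa1l holds 6.79% of the Hspa1b windows, and the more distant family members Hspa2 and Hspa8 hold none. Probe positions were not used here, so whether the Hspa1b probe separates the transcripts was not tested.

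Library totals lay between 1763440 and 7904819 counts, and Hspa1b had 22 to 6637 counts with none at 0. Of 18 enterocyte markers listed, 5 were in the table (Fabp1, Fabp2, Apoa1, Klf4 and Hnf4a), and all 5 were detected. Pancreatic acinar transcripts were also present, from 17 of 33 listed markers with none at 0 in a whole group. Their share of counts ran from 2.99% to 78.6% in Cr(VI) libraries, 0.00772% to 31.9% with captan at 6000 ppm, 0.00888% to 51.2% with captan at 12000 ppm, 0.0103% to 37.8% with folpet at 6000 ppm, 12.7% to 42.1% with folpet at 16000 ppm and 18.5% to 72.7% in controls. In 7 libraries it was over 50%. Levels below are CPM, the counts scaled to a common library size, and are scaled by TMM, which sets libraries level on the bulk of their probes. In bulk tissue, fewer cells of a type and less RNA per cell cannot be told apart.

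The 2 upper doses of the fungicides had the highest Hspa1b levels. By group medians the order, from high to low, was folpet at 16000 ppm (971 CPM), captan at 12000 ppm (622 CPM), control (168 CPM), folpet at 6000 ppm (39.7 CPM), captan at 6000 ppm (24.4 CPM) and Cr(VI) (21.7 CPM). The control median of Hspa1b was above that of 81.6% of the 3045 probes. Each group in this order overlapped its neighbours in range, so no adjacent pair is separated beyond its spread. Across both fungicides, the 14 libraries of the upper doses lay between 175 and 1384 CPM, and 13 of the 14 libraries at 6000 ppm lay below all of them. The exception was 1 captan library at 572 CPM, and the next highest at 6000 ppm had 134 CPM. Set against the controls, 11 of the 14 upper-dose libraries exceeded the highest control and 9 of the 14 libraries at 6000 ppm were under the lowest. The last count depends on the scaling. By library totals the lowest control had 34.7 CPM, and the medians at 6000 ppm were 31.2 CPM with captan and 48.5 CPM with folpet.

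**Figure D1:**
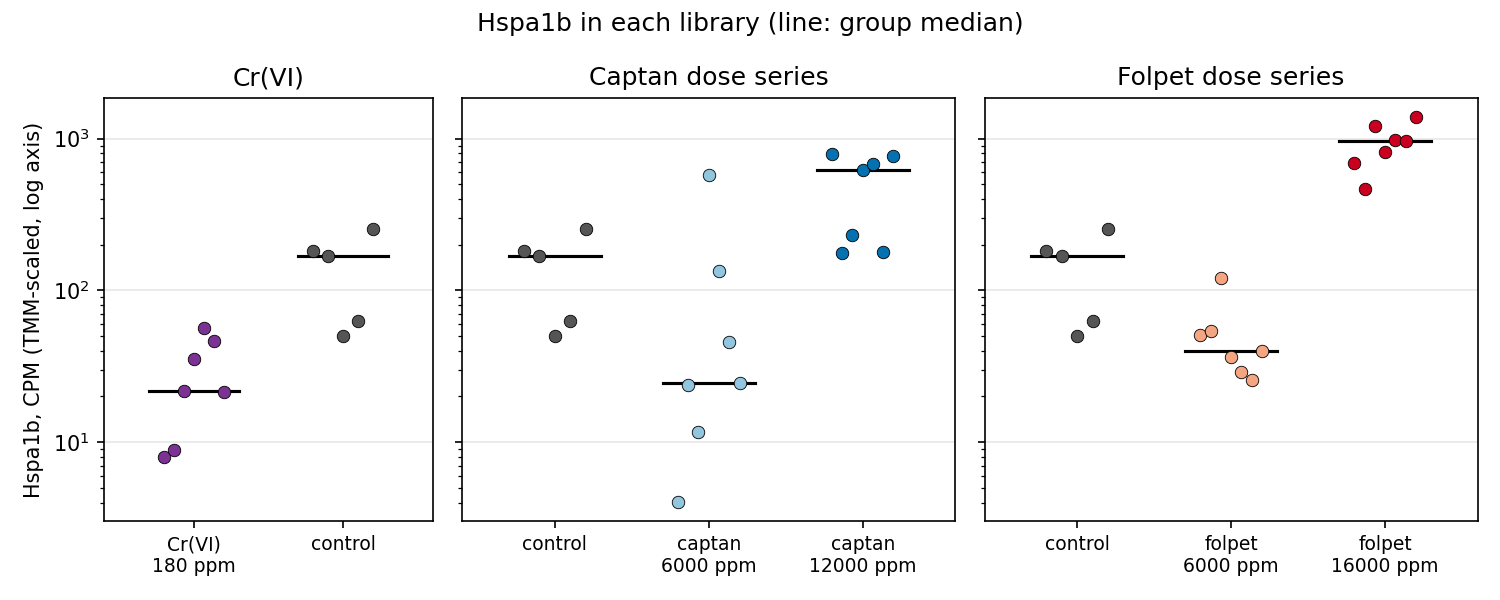
Hspa1b in each of 40 libraries, as TMM-scaled CPM on a log axis, with 1 point per library and a line at the group median; Cr(VI) stands left of its control, and each fungicide is in order of dose from the same 5 controls. All folpet libraries at 16000 ppm lie above all folpet libraries at 6000 ppm and all controls, and 1 captan library at 6000 ppm (572 CPM) lies among those at 12000 ppm and above the lowest folpet library at 16000 ppm (469 CPM).

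Folpet gave the widest separation. With 16000 ppm the lowest, median and highest libraries had 469, 971 and 1384 CPM, against 25.9, 39.7 and 120 CPM with 6000 ppm. The groups did not overlap, and all 7 libraries at 16000 ppm were above all 7 at 6000 ppm. Hspa1b averaged 934 ± 310 CPM at 16000 ppm and 50.9 ± 32.3 CPM at 6000 ppm (SD, n = 7 each), a log2 fold change of 4.20 ± 0.75 (SE) in edgeR's fit, or 18.3-fold. Of all 2541 probes tested in this dose step, 1.73% passed an adjusted p of 0.05; the gene was chosen for contrasts such as this one, so nothing is read from the comparison.

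Against the controls the 2 folpet doses lay on opposite sides. The controls had 49.8, 62.6, 168, 181 and 255 CPM, with a mean of 143 ± 86.2 CPM (SD, n = 5). All 7 libraries at 16000 ppm were above the highest control, and the log2 fold change was 2.71 ± 0.81 (6.57-fold), in a comparison where 12.6% of probes passed. At 6000 ppm 4 of 7 libraries were below the lowest control and the ranges overlapped, with a log2 fold change of -1.48 ± 0.73. These comparisons share the same 5 control libraries, as do the others with control.

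Captan showed the same order of doses with a broader spread. With 12000 ppm the lowest, median and highest libraries had 175, 622 and 793 CPM, against 4.05, 24.4 and 572 CPM with 6000 ppm. The upper group fell into 4 libraries of 622 CPM or more and 3 libraries from 175 to 232 CPM. The lower group held 6 libraries from 4.05 to 134 CPM and 1, replicate 4, at 572 CPM, through which alone the doses overlapped. The mean was 494 ± 285 CPM at 12000 ppm and 117 ± 206 CPM at 6000 ppm (SD, n = 7 each).

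The size of the captan step depended on that library. With all libraries the log2 fold change was 2.08 ± 0.69 (4.22-fold), while the medians differed 25.5-fold. Without replicate 4 of the 6000 ppm group the log2 fold change was 3.60 ± 0.63 (12.1-fold). For folpet the medians differed 24.5-fold, close to the medians of captan in size, although the upper doses differ (12000 and 16000 ppm) and were not compared.

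Against the controls, captan at 12000 ppm had a log2 fold change of 1.80 ± 0.77, with 4 of 7 libraries above the highest control and none below the lowest. Captan at 6000 ppm had -0.28 ± 0.73, with 5 of 7 libraries below the lowest control and 1 above the highest. Without replicate 4 that value was -1.77 ± 0.62, and without control replicate 5 it was 0.02 ± 0.78. With library totals in place of TMM it was 0.25, where the median of all probes lay at 0.33, so the sign at this dose rests on single libraries and on the scaling.

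Markers of enterocytes, immune cells and stroma differed from control in some or all exposed groups. Of 6 endothelial probes 0 passed over control in any exposed group. The 1 goblet and Paneth probe, Spdef, fell with folpet at 6000 ppm alone. Of 5 enterocyte probes 4 rose with folpet at 16000 ppm (80%, beside 12.6% of all probes), 2 with folpet at 6000 ppm (40%, beside 6.22%), 4 with captan at 12000 ppm (80%, beside 6.18%), 2 with captan at 6000 ppm (40%, beside 5.16%) and 3 with Cr(VI) (60%, beside 5.94%). Their summed level was 61770 to 91772 CPM with folpet at 16000 ppm and 50651 to 142680 CPM with captan at 12000 ppm, against 10126 to 76831 CPM in controls, by library totals. Such sums, here and for immune markers below, are lowered where the acinar share of a library is high. With folpet at 16000 ppm 6 of 13 immune probes (46.2%) and 3 of 9 stromal probes (33.3%) fell, beside 12.6% of all probes. Immune markers there summed to 2105 to 6327 CPM, against 4842 to 30766 CPM in controls, with 1 of the 13 at 0 in all libraries at 16000 ppm. The immune share that fell was 23.1% with Cr(VI), and 15.4% with either captan dose and with folpet at 6000 ppm. For stromal probes it was 33.3% and 22.2% with captan at 12000 and 6000 ppm. It was 11.1% with folpet at 6000 ppm and 0% with Cr(VI). In the folpet step 3 of 13 immune (23.1%) and 1 of 9 stromal probes (11.1%) fell, beside 1.73% of all probes. The part of these cell types in the Hspa1b values was not tested.

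Cr(VI) libraries had little Hspa1b. They ran from 7.995 to 56.6 CPM with a median of 21.7 CPM, and 6 of the 7 were below the lowest control. The mean was 28.3 ± 18.5 CPM with Cr(VI) (n = 7) and 143 ± 86.2 CPM in controls (n = 5, SD), a log2 fold change of -2.31 ± 0.75. The highest Cr(VI) library (56.6 CPM) had the smallest acinar share, 2.99%. The lowest (7.995 CPM) had 44.1%, and the one with the largest share, 78.6%, had 21.7 CPM. Replicates 6 and 4, with shares of 43.7% and 50.3%, had 46.5 and 35.2 CPM. Replicates 2 and 7, with 64.1% and 68.3%, had 8.91 and 21.4 CPM. The part of the acinar share in these values was not tested.

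At 6000 ppm, the 1 dose both fungicides share, captan and folpet could be set side by side. Hspa1b had 4.05, 24.4 and 572 CPM (lowest, median, highest) with captan and 25.9, 39.7 and 120 CPM with folpet. The captan range enclosed the folpet range. The log2 fold change of captan over folpet was 1.20 ± 0.68, and it was -0.32 ± 0.57 without captan replicate 4, while the median with captan was 0.615 times that with folpet. This was the only pair of compounds at a matched dose and, with the sign resting on 1 library, no direction is read from it.

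The median acinar share was lower at the upper dose of captan and higher at the upper dose of folpet. It was 0.791% with captan at 12000 ppm against 23.9% at 6000 ppm, and 24.1% with folpet at 16000 ppm against 14.2% at 6000 ppm, and it was 50.3% with Cr(VI) against 37.6% in controls. With acinar probes removed before scaling, the log2 fold change of Hspa1b was 2.09 in the captan step, 4.21 in the folpet step and -2.24 for Cr(VI) over control. Without the 7 libraries over 50%, it was 1.93, 4.18 and -1.82. The acinar share also varied widely within groups, and the part of acinar tissue in the Hspa1b values was not tested.

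**Figure D2:**
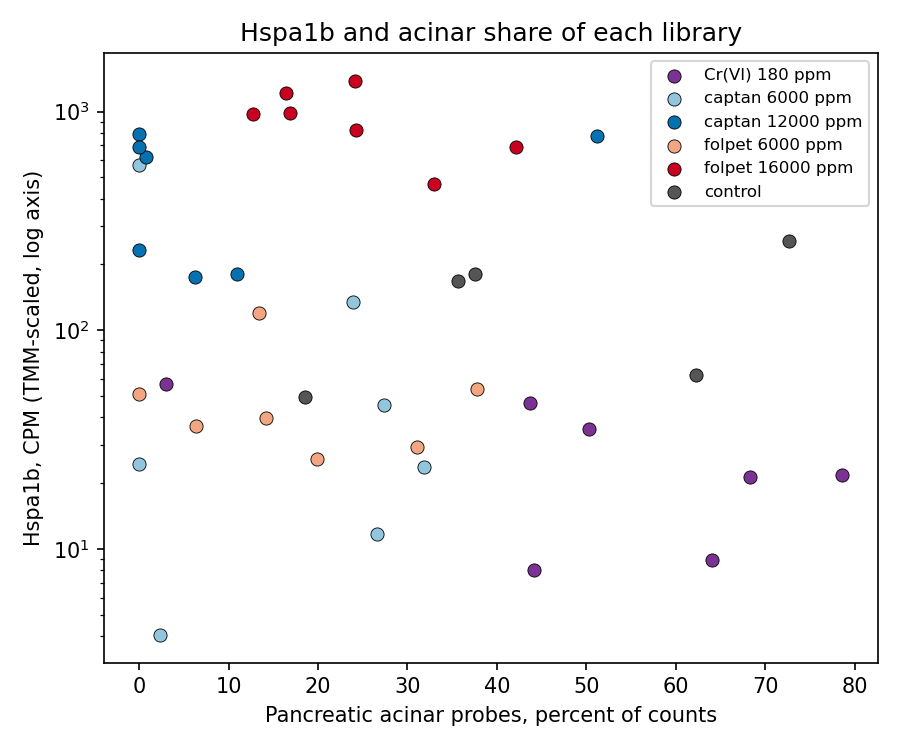
Hspa1b (TMM-scaled CPM, log axis) against the percent of each library's counts from 17 acinar markers, with 1 point per library and colour for the group. Captan libraries at 12000 ppm carried 0.00888% to 51.2% and folpet libraries at 16000 ppm carried 12.7% to 42.1%, and the points beyond 51.2% are Cr(VI) and control libraries.

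The Hspa1a probe gave a faint copy of the same pattern. It had 0 counts in 12 of 40 libraries, namely 5 with Cr(VI), 4 with captan at 6000 ppm, 2 with folpet at 6000 ppm and 1 control, and no library at either upper dose was at 0. Its smallest count above 0 was 11, and over the whole table only 1.01% of values above 0 lay from 1 to 5, so a 0 here says little about a low transcript. Hspa1a supplied 2.63% of the counts of the pair and never exceeded Hspa1b in a library. Detection may differ between probes, so this is not the ratio of the transcripts.

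With folpet at 16000 ppm the lowest, median and highest Hspa1a libraries had 5.71, 16.9 and 36.3 CPM, against 0, 2.70 and 10.4 CPM at 6000 ppm. The ranges overlapped, with 6 of 7 upper-dose libraries above all of the lower dose and a log2 fold change of 2.60 ± 1.26. With captan at 12000 ppm it had 2.41, 7.83 and 23.3 CPM, against 0, 0 and 15.8 CPM at 6000 ppm, and the log2 fold change was 1.60 ± 1.22. The captan ranges overlapped too, and the 15.8 CPM belonged to replicate 4, the library that was also high in Hspa1b.

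Controls had 0, 3.48, 5.78, 15.4 and 44.1 CPM of Hspa1a, and no library of either upper dose exceeded the highest. The log2 fold change over control was 0.65 ± 1.33 with folpet at 16000 ppm and -0.38 ± 1.30 with captan at 12000 ppm, and these were 1.78 and 0.76 without control replicate 5, which holds the 44.1 CPM. Hspa1a had -3.40 ± 1.37 with Cr(VI), -1.98 ± 1.31 with captan at 6000 ppm and -1.95 ± 1.31 with folpet at 6000 ppm.

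**Figure D3:**
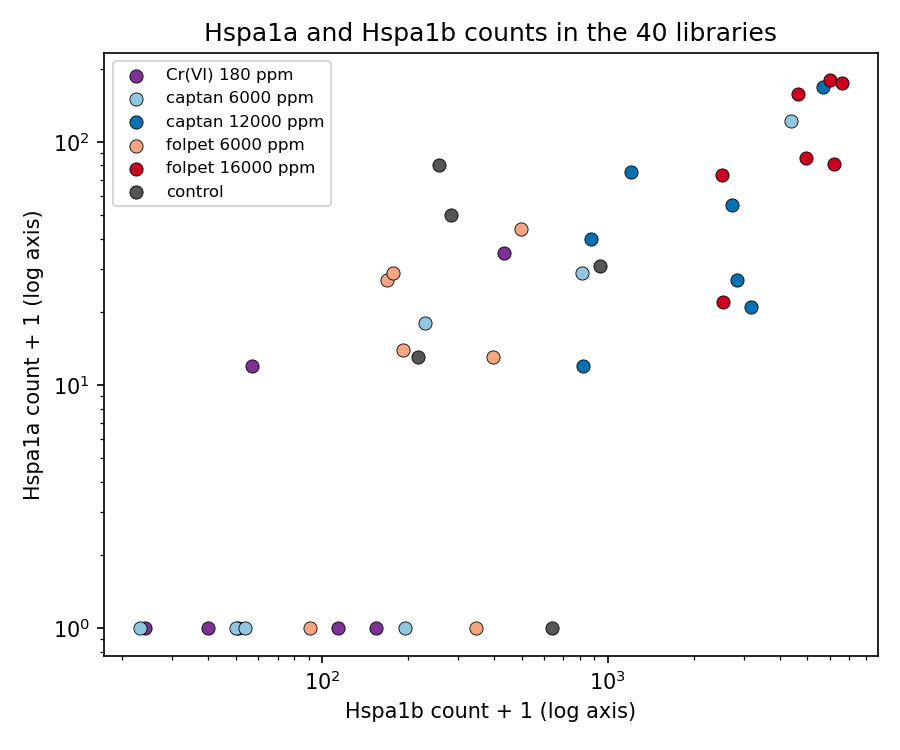
Counts of Hspa1a against counts of Hspa1b in 40 libraries, each plus 1 on log axes so that libraries with 0 counts of Hspa1a lie on the floor; colour gives the group. The 12 libraries at 0 all belong to Cr(VI), the 6000 ppm groups and the controls, and every point has more Hspa1b than Hspa1a.

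Other chaperone genes were tested in both dose steps, though with captan no probe of any kind passed. Besides the pair, 31 probes of 27 heat shock and chaperone genes were tested by edgeR's quasi-likelihood test, with Benjamini-Hochberg adjustment over all 2541 probes. In the folpet step 1 of the 31 rose and 1 fell, a share of 6.45% beside 1.73% of all probes, and 22 of 31 fold changes were positive. Their median log2 fold change was 0.25, beside -0.03 over all probes. In the captan step 0 of 31 passed, as did 0% of all probes; 4 of the 31 and 148 of all probes had an unadjusted p under 0.05, and DESeq2 and limma-voom also called 0 of all probes. Here 24 of 31 fold changes were positive, with a median of 0.18 beside 0.00. Setting the 1 probe at 0 throughout a group at its bound of 3 counts per library left both medians as they were.

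The co-chaperones of HSP70 come first. Dnajb1, which delivers clients to HSP70, averaged 63.8 ± 25.3 CPM with folpet at 16000 ppm against 28.5 ± 18.6 CPM at 6000 ppm, a log2 fold change of 1.16 ± 0.50 (adjusted p = 0.321). Bag3, which couples HSP70 to autophagy, averaged 90.0 ± 16.4 against 53.9 ± 13.5 CPM, with 0.74 ± 0.28 (adjusted p = 0.225) and 6 of 7 upper-dose libraries above all of the lower dose. Hsph1, the exchange factor of HSP70, had 428 ± 127 against 264 ± 92.1 CPM and 0.70 ± 0.45 (adjusted p = 0.734). None of these passed. In the captan step their log2 fold changes were 0.60 ± 0.50, 0.44 ± 0.28 and 0.19 ± 0.45, each with an adjusted p of 1.

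Hspa8, the constitutive member of the HSP70 family, could not be assessed: its 2 probes reached no more than 8.20 and 9.56 CPM in any library, and 1 of them was at 0 in all 5 controls. Hspa4, a relative of Hsph1, had 1323 ± 90.9 CPM with folpet at 16000 ppm against 1099 ± 180 CPM at 6000 ppm, and did not pass (0.27 ± 0.12, adjusted p = 0.361). Hsf1 was not among the heat shock and chaperone genes found in the targeted table, so no value is given for it.

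Among HSP90 and its partners, the stress-inducible Hsp90aa1 had a log2 fold change of 0.25 ± 0.17 in the folpet step (adjusted p = 0.734) and 0.28 ± 0.17 in the captan step (adjusted p = 1). Its second, lower-count probe had -0.24 ± 0.38 and 0.77 ± 0.39. Fkbp5, an HSP90 co-chaperone of steroid receptors that glucocorticoids induce, fell to 1334 ± 390 CPM with folpet at 16000 ppm, against 4781 ± 775 CPM at 6000 ppm, a log2 fold change of -1.84 ± 0.35 (adjusted p = 0.00211). All 7 upper-dose libraries, at most 1903 CPM, were below the lowest of the 6000 ppm group, 3669 CPM. Over control, Fkbp5 rose with folpet at 6000 ppm (1.87 ± 0.39, adjusted p = 0.00166) and was 0.03 ± 0.37 at 16000 ppm. In the captan step it was -1.03 ± 0.34 and did not pass (adjusted p = 0.555).

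Tcp1, a subunit of the cytosolic chaperonin that folds actin and tubulin, rose to 863 ± 175 CPM with folpet at 16000 ppm, against 492 ± 81.3 CPM at 6000 ppm, a log2 fold change of 0.81 ± 0.16 (adjusted p = 0.00247). In 6 of 7 upper-dose libraries it exceeded all of the lower dose. It rose over control as well (0.69 ± 0.18, adjusted p = 0.00609), and it was 0.14 ± 0.16 in the captan step (adjusted p = 1). Both calls were lost with library totals in place of TMM.

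**Figure D4:**
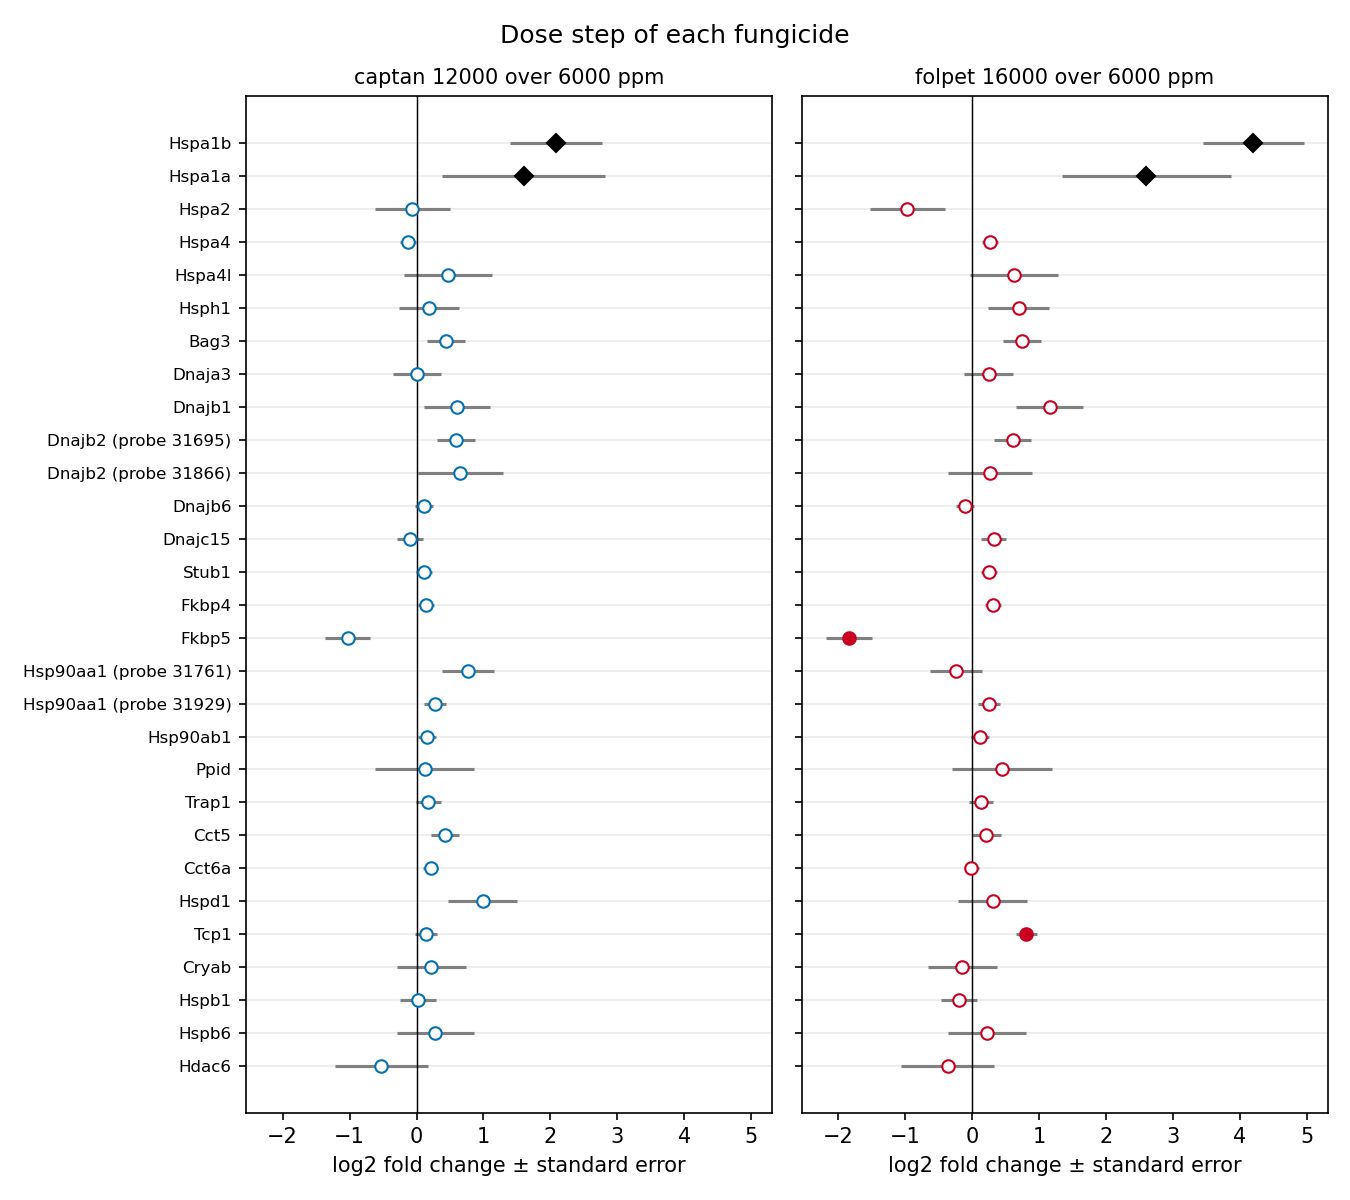
Log2 fold change with its standard error (upper over lower dose) for Hspa1b and Hspa1a (black diamonds, not tested) and 27 other heat shock and chaperone probes averaging at least 5 CPM over the groups (circles, filled where the adjusted p is under 0.05), with captan on the left and folpet on the right on 1 scale. Among the probes shown Hspa1b, chosen for contrasts such as these, lies farthest to the right in both panels. The filled circles are Fkbp5 (-1.84) and Tcp1 (0.81), both in the folpet step. The second Hsph1 probe, under that cut and at 0 in all libraries at 6000 ppm, had 5.82 with captan and 6.81 with folpet.

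The same list was read against the controls. With folpet at 16000 ppm 2 of 31 probes rose and 2 fell (12.9%, beside 12.6% of all probes), and with captan at 12000 ppm 2 rose and none fell (6.45%, beside 6.18%). These shares are near the background. With captan at 6000 ppm 0 of 31 passed in edgeR's test (5.16% of all probes), where 10 had an unadjusted p under 0.05 and DESeq2 called 5 and limma-voom 1. With folpet at 6000 ppm 2 rose and 1 fell (9.68%, beside 6.22%). With Cr(VI) none rose and 4 fell (12.9%, beside 5.94%). Between captan and folpet at 6000 ppm 0 of 31 passed (0.157% of all probes), with 1 at an unadjusted p under 0.05, and DESeq2 and limma-voom each called 1.

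Besides Fkbp5 and Tcp1, given above, Stub1 and Dnajb6 rose over control. Stub1, a ubiquitin ligase that tags clients of HSP70, had 507 ± 31.3 CPM with folpet at 16000 ppm and 495 ± 94.6 CPM with captan at 12000 ppm, against 359 ± 35.9 CPM in controls. Its log2 fold changes were 0.50 ± 0.13 (adjusted p = 0.00806) and 0.46 ± 0.13 (adjusted p = 0.0237). Dnajb6, an HSP40 that suppresses aggregation, rose with captan at 12000 ppm (0.50 ± 0.15, adjusted p = 0.0283) and with folpet at 6000 ppm (0.48 ± 0.15, adjusted p = 0.0404). The Stub1 and Dnajb6 calls with captan were lost without captan replicate 3 of that group, and the Dnajb6 call with captan also without control replicates 3 or 4. With 10 other settings, Dnajb6 was lost under 5 with captan and 6 with folpet, Stub1 under 4 with captan, and Stub1 with folpet at 16000 ppm under library totals. The folpet call of Dnajb6 was lost when any of 6 single libraries, replicates 2, 5 and 6 of that group and control replicates 3, 4 and 5, was left out.

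Of the 4 small heat shock protein probes, 2 fell over control with folpet at 16000 ppm (50%, beside 12.6% of all probes), 1 with folpet at 6000 ppm (25%, beside 6.22%) and 1 with Cr(VI) (25%, beside 5.94%). With either captan dose 0 of 4 passed in edgeR's test, where 3 had an unadjusted p under 0.05 and DESeq2 called 2 and limma-voom 1. Cryab and Cryaa, crystallins that also act as chaperones, passed in none of the 8 comparisons in edgeR's test. Hspb6, a muscle-rich member, fell to 14.8 ± 4.88 CPM with folpet at 16000 ppm, 12.7 ± 5.21 CPM with folpet at 6000 ppm and 13.7 ± 14.9 CPM with Cr(VI), against 59.8 ± 38.5 CPM in controls. The log2 fold changes were -2.01 ± 0.63 (adjusted p = 0.0248), -2.23 ± 0.63 (adjusted p = 0.0211) and -2.12 ± 0.63 (adjusted p = 0.0349). None of the 3 passed without control replicate 5. The call at 16000 ppm was also lost without replicate 4 of that group, the call at 6000 ppm without replicate 6 of that group, and the Cr(VI) call without Cr(VI) replicates 1, 2, 3, 5 or 7 or control replicate 3. Hspb1, which holds unfolded proteins for HSP70, fell with folpet at 16000 ppm to 93.0 ± 34.2 CPM, against 172 ± 54.8 CPM in controls (-0.89 ± 0.29, adjusted p = 0.0329). That call was kept in 4 of 12 repeats that each left out 1 library, being lost without replicates 1, 2, 4 or 6 at 16000 ppm or control replicates 1, 2, 3 or 4. In the folpet step Hspb1 was -0.19 ± 0.27 (adjusted p = 0.956). Hspb1 averaged 93.7 ± 39.3 and 95.0 ± 26.0 CPM with captan at 6000 and 12000 ppm. With folpet at 6000 ppm it had 106 ± 54.3 CPM, and with Cr(VI) 126 ± 45.8 CPM. It did not pass over control in these groups, so its lower level was not particular to folpet at 16000 ppm.

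Beside Hspb6, smooth muscle markers were counted. Of 7 tested, 4 fell with folpet at 16000 ppm (57.1%, beside 12.6% of all probes), 3 with folpet at 6000 ppm (42.9%, beside 6.22%) and 1 with Cr(VI) (14.3%, beside 5.94%). With each captan dose, where Hspb6 did not pass, 2 of 7 fell (28.6%, beside 6.18% at 12000 ppm and 5.16% at 6000 ppm). Their summed level was 956 to 4869 CPM with captan at 12000 ppm, 1429 to 2790 CPM with captan at 6000 ppm, 1021 to 2073 CPM with folpet at 16000 ppm, 1468 to 2816 CPM with folpet at 6000 ppm and 453 to 3370 CPM with Cr(VI), against 1208 to 5145 CPM in controls, by library totals and with no marker at 0 in a whole group. These sums also depend on the acinar share of each library. The part of the smooth muscle markers in the Hspb6 values was not tested.

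With Cr(VI), where Hspa1b was lowest, the 4 that fell were Hspb6, Cct6a, Fkbp4 and Hsp90aa1. Cct6a, another chaperonin subunit, had 353 ± 54.1 CPM against 551 ± 108 CPM in controls (-0.64 ± 0.12, adjusted p = 0.000711). Fkbp4, an HSP90 co-chaperone, had 923 ± 115 against 1385 ± 286 CPM (-0.59 ± 0.13, adjusted p = 0.00263). Hsp90aa1 had 933 ± 167 CPM, against 1143, 1341, 1388, 1517 and 1566 CPM in the 5 controls (-0.58 ± 0.18, adjusted p = 0.0454), and its second probe did not pass (0.05 ± 0.43, adjusted p = 0.982). Hsph1 had 123 ± 64.9 CPM, against 207, 214, 316, 420 and 449 CPM in controls, and did not pass (-1.39 ± 0.49, adjusted p = 0.0905). The Cct6a and Fkbp4 calls held when any 1 library was left out. The Hsp90aa1 call held in only 2 of the 12 such repeats, those without Cr(VI) replicate 6 or control replicate 3. All 4 calls were lost without the 7 libraries over 50% acinar, which include 4 of the Cr(VI) libraries and 2 of the controls. Without them the log2 fold change was -0.53 ± 0.16 for Cct6a, -0.51 ± 0.17 for Fkbp4, -2.71 ± 0.90 for Hspb6 and -0.27 ± 0.26 for Hsp90aa1 (adjusted p = 0.0684, 0.113, 0.0988 and 0.698).

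Of the 5 probes whose levels followed Hspa1b most closely from library to library, 4 were of heat shock genes. Hspa1a is 1 of the 4, and the pair is so alike that a probe may read both. Besides Hspa1a, 31 of the 2540 probes compared were of heat shock and chaperone genes. Likeness was measured as the Spearman correlation of log2 CPM over 40 libraries, which share depth, acinar share and exposure, among 2540 probes, and is given as a description. The 5 highest were Hspa1a (0.81), Hsp90aa1 (0.73), Hsph1 (0.73), Dnajb1 (0.71) and Osgin1 (0.68), an oxidative stress response gene. Other heat shock and chaperone genes ran from high to negative values, with Tcp1 at 0.59, Bag3 at 0.58, Hspb1 at -0.21, Hdac6 at -0.28 and Hspa2, a testis-enriched HSP70, at -0.34.

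The 5 lowest were Erbb3 (-0.74), Wdtc1 (-0.69), Relb (-0.67), Rnf167 (-0.65) and Fkbp5 (-0.65). Erbb3 encodes a receptor of the EGF receptor family, and Relb a subunit of NF-kappa-B. In the folpet step Osgin1 rose to 630 ± 130 CPM at 16000 ppm, against 230 ± 78.8 CPM at 6000 ppm (1.46 ± 0.24, adjusted p = 0.000206), and Erbb3 fell to 2965 ± 330 CPM, against 5713 ± 630 CPM (-0.95 ± 0.15, adjusted p = 0.000206). Both calls held when any 1 library was left out and were lost with library totals in place of TMM.

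**Figure D5:**
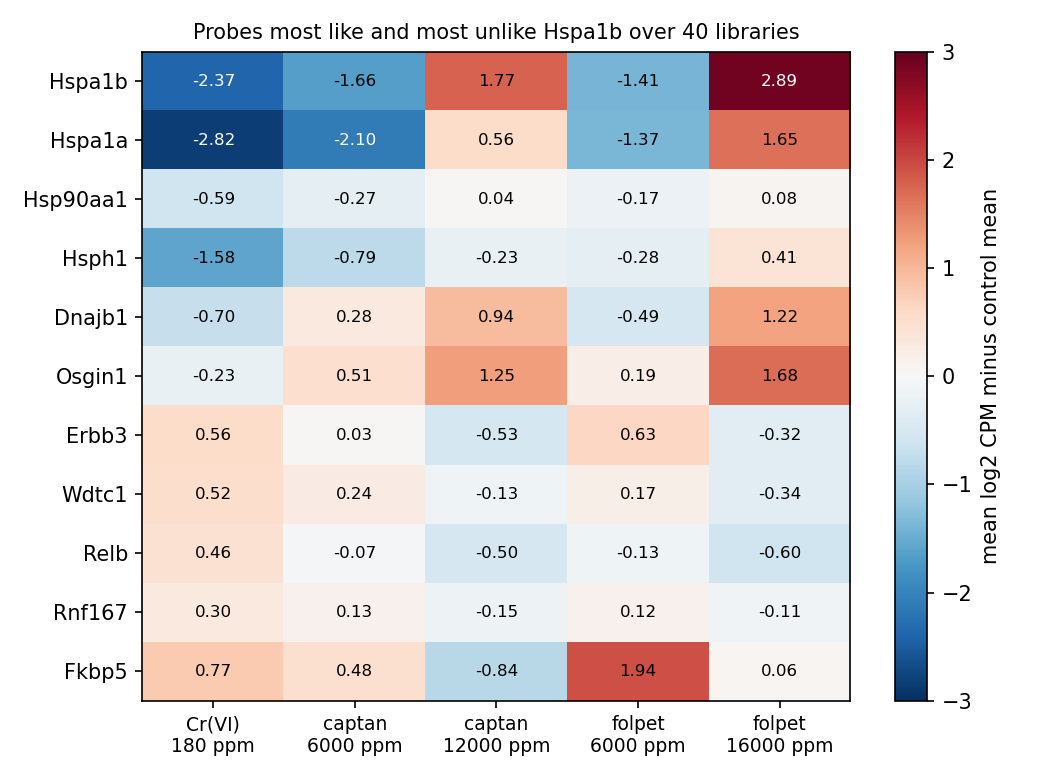
Mean log2 CPM of each exposed group minus that of the controls for Hspa1b, the 5 probes most like it and the 5 most unlike it over 40 libraries; numbers in the cells are the differences, red higher and blue lower than control. Hspa1b runs from -2.37 with Cr(VI) to 2.89 with folpet at 16000 ppm, a wider range than Hsp90aa1, from -0.59 to 0.08.

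Within groups, after each library's distance from its own group mean was taken, the 5 highest of the 2540 probes were Sfn (0.60), Hsph1 (0.60), Gsr (0.57), Hsp90aa1 (0.55) and Mrps2 (0.52). Sfn encodes the epithelial stress protein 14-3-3 sigma, Gsr the reductase of glutathione, and Mrps2 a protein of the mitochondrial ribosome. Hsph1 and Hsp90aa1 are thus in both sets of 5.

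In captan replicate 4 at 6000 ppm, the library high in Hspa1b, 5 of the 31 heat shock and chaperone probes were the highest of their group (16.1%, beside 272 of all 2541 probes, 10.7%), a share near that of all probes. The 5 belong to Hsph1, Hsp90aa1 with both probes, Hsp90ab1 and Bag3, which are given as values. The library held 718 CPM of Hsph1, the most of all 40 libraries, while the other 6 of its group ran from 39.1 to 396 CPM. Hsp90aa1 stood at 1843 CPM there, against 756 to 1504 CPM in the other 6, and Hsp90ab1, its constitutive relative, at 1895 CPM, against 942 to 1469 CPM. Bag3 stood at 85.6 CPM there, against 41.9 to 83.1 CPM. Dnajb1, with 44.2 CPM, and Hspb1, with 75.5 CPM, lay within the range of the other 6, Hdac6 and Cryaa were at 0 and below the other 6, and the acinar share was 0.0111%, near the lowest of the 40.

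Hspa1b lies in a gene-dense part of chromosome 17, and of the 20 genes within 10 genes on either side, Skiv2l, Hspa1a, Hspa1l and Lsm2 were measured. Skiv2l, an RNA helicase, and Lsm2, a subunit of a ring that binds RNA ends, passed in none of the 8 comparisons in edgeR's test; in the folpet step they had log2 fold changes of -0.03 and 0.19 and in the captan step of -0.42 and 0.39. Hspa1l, a testis-enriched relative next to the pair, did not pass the filter on low counts.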

How the data were processed

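Each value in the deposited table is a raw whole-number count of a probe in 1 of 40 TempO-Seq libraries, per the labels and from the values. Bowtie, build mm9 and bcl2fastq 2.17.1.14 are listed in the submitters' processing notes. PCR copies cannot be told from molecules, so a floor of 3 counts covers counting error only. Columns were matched to libraries by title. Replicate numbers were given in accession order and pair nothing. No 2 libraries of a group were identical (0 pairs). P-values measure the spread between libraries, which may be technical.

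The filter was filterByExpr with a minimum count of 10 and a minimum total of 15. After TMM scaling, edgeR 4.0.16 in R 4.3.3 fitted group means to the 40 libraries together by robust quasi-likelihood (34 residual degrees of freedom). Tests are 2-sided, with Benjamini-Hochberg adjustment over the probes of a comparison and a threshold of 0.05. A standard error is the log2 fold change over the square root of F. Log2 CPM used a prior count of 2. Alternatives were 10 other settings, with DESeq2 1.42.0 and limma 3.58.1 among them, and fits leaving out each library. The log2 scale for gaps between libraries was chosen after seeing the data. The scripts were tested on simulated counts.

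Hspa1b and the gene lists were chosen with earlier results of these data known. Named were both members, heat shock genes that passed, 6 HSF1-related genes (Hsph1, Hspb1, Dnajb1, Bag3, Hsp90aa1, Hspa8) 5 probes for each kind of likeness and, from other lists, genes among the 4 smallest adjusted p of a comparison. Hspa4, Hsp90ab1, Skiv2l and Lsm2 were added after their values were seen. For genes with 2 probes, the probe with the higher counts is given first. Mouse symbols were matched through RefSeq.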

Additional observations from a re-analysis of the deposited data

Results flagged for a closer look

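In 3 places 1 library lay far from the others of its group, its gap to the next library being large for the group's range on CPM by Dixon's criterion. Chance alone does this in about 1 in 20 groups where values are normally distributed, and CPM are skewed: on log2 CPM the gap over the range was 0.298, 0.319 and 0.523 for the libraries in the order below, all under the limit of 0.568, so these calls depend on the scale. Hspa1b was 572 CPM in replicate 4 of captan at 6000 ppm, where the next library had 134 CPM. Hspa1a was 15.8 CPM in the same library, against 4.62 CPM in the next. Hspa1b was 120 CPM in replicate 3 of folpet at 6000 ppm, where the next library had 54.0 CPM.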

How the results depend on the processing

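No paired analysis was possible because replicate numbers follow accession order. Over 10 other settings the log2 fold change of Hspa1b kept its sign in 7 of the 8 comparisons and ran from 3.91 to 4.32 in the folpet step, 1.93 to 3.10 in the captan step, 2.36 to 3.09 for folpet at 16000 ppm over control, 1.34 to 2.30 for captan at 12000 ppm over control and -2.41 to -1.82 for Cr(VI). Captan at 6000 ppm over control ran from -1.13 to 0.25. Library totals shifted the median of all probes by up to 0.44 and gave 57 calls in place of 320 for folpet at 16000 ppm, 14 in place of 151 for Cr(VI), 51 in place of 158 for folpet at 6000 ppm and 9 in place of 44 in the folpet step. Fitting only the compared groups gave 113 in that step, and 29 in place of 131 and 157 for captan at 6000 and 12000 ppm; DESeq2 gave 240, 213, 261 and 225 for the 4 groups other than folpet at 16000 ppm, and 86 in the folpet step. Of the 31 heat shock and chaperone probes, those called changed in number as follows, and the cause was not tested. DESeq2 size factors gave 1 for captan at 6000 ppm and 1 at 12000 ppm. Library totals gave 0 for Cr(VI), 1 for captan at 12000 ppm, 1 for folpet at 6000 ppm, 0 for folpet at 16000 ppm and 1 in the folpet step. DESeq2 gave 5 for captan at 6000 ppm and 1 for captan against folpet at 6000 ppm, and limma-voom gave 1 and 1. Fitting only the compared groups gave 0 for Cr(VI), 0 for captan at 12000 ppm and 1 for captan against folpet. Without libraries over 50% acinar the numbers were 0 for Cr(VI), 0 for captan at 12000 ppm and 1 for folpet at 6000 ppm, and with the acinar share as a covariate 0 and 1 for the last 2. DESeq2 and limma-voom each gave 4 for captan at 12000 ppm. Leaving out 1 library at a time gave 2 to 4 for Cr(VI), 0 to 1 for captan at 6000 ppm, 0 to 4 for captan at 12000 ppm, 1 to 4 for folpet at 6000 ppm, 2 to 5 for folpet at 16000 ppm, 0 to 1 in the captan step, 2 in the folpet step and 0 for captan against folpet at 6000 ppm.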

Other observations

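At 6000 ppm Hspa1b was under the lowest control in 9 of 14 libraries by TMM-scaled CPM. That count depends on the scaling. By library totals the lowest control had 34.7 CPM, against medians at 6000 ppm of 31.2 CPM with captan and 48.5 CPM with folpet. At this dose 5 of 15 probes of oxidative and metal stress genes rose over control with each fungicide (33.3%, beside 6.22% of all probes with folpet and 5.16% with captan). Of the 15, 8 rose over control with folpet at 16000 ppm and 7 with captan at 12000 ppm, by edgeR's test, and none fell in these 4 groups. That is 53.3% with folpet at 16000 ppm, beside 12.6% of all probes, and 46.7% with captan at 12000 ppm, beside 6.18%. With Cr(VI) 0 of 15 passed in edgeR's test, DESeq2 and limma-voom, and 3 had an unadjusted p under 0.05 in edgeR's. With folpet at 16000 ppm the median log2 fold change was 1.34, beside -0.05 over all probes. Gsr, the reductase of glutathione, averaged 2844 ± 567 CPM with folpet at 16000 ppm, 1726 ± 593 CPM with folpet at 6000 ppm and 1497 ± 642 CPM with captan at 6000 ppm, against 612 ± 161 CPM in controls, with log2 fold changes of 2.22 ± 0.32, 1.49 ± 0.31 and 1.29 ± 0.31 (adjusted p = 5.75e-06, 0.00166 and 0.00842). With captan at 12000 ppm Gsr averaged 1799 ± 847 CPM, a log2 fold change over control of 1.56 ± 0.32 (adjusted p = 0.00133 in edgeR's test). Both captan calls were lost without libraries over 50% acinar. The captan call at 6000 ppm was also lost with the acinar share as a covariate. In the folpet step 1 of the 15 rose (6.67%, beside 1.73% of all probes), namely Prdx1, a peroxidase that removes hydrogen peroxide. Prdx1 had 5711 ± 865 CPM at 16000 ppm against 3652 ± 319 CPM at 6000 ppm (0.65 ± 0.16, adjusted p = 0.0248).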
